A study of Arabidopsis thaliana with 9 samples.

Results

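The 9 genes described here are 7 cold-regulated genes (KIN1, AT5G15960; KIN2, AT5G15970; COR15A, AT2G42540; COR15B, AT2G42530; RD29A, AT5G52310; COR47, AT1G20440; and ERD10, AT1G20450) and the 2 early light-induced genes ELIP1 (AT3G22840) and ELIP2 (AT4G14690), out of 34262 rows in the mRNA table of a study of ARGONAUTE 3 (AGO3) in Arabidopsis thaliana siliques. They were chosen by name, with earlier results of these data known, to see how heterozygous siliques stood against both other genotypes. AGO3 is an ARGONAUTE, a protein that carries small RNAs (sRNAs) to matching transcripts or loci. Siliques, the fruits with their developing seeds, were taken between day 1 and day 5 after pollination from plants of the Columbia-0 background. The mRNA groups were plants heterozygous for the ago3-3 allele, plants homozygous for it and wild-type plants, with 2 biological samples each according to the series design. The type of lesion in ago3-3 is not given in the sources used here. The 3 sRNA libraries, without replication, were an immunoprecipitate of tagged AGO3 from ago3-3 plants with the transgene pAGO3:FHA-AGO3, a control FLAG immunoprecipitate from wild-type plants and total sRNA of wild-type plants. Nothing beyond the words "biological samples" says how the replicates were grown, so p-values measure only the spread between these samples.

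Cold-regulated (COR) genes are switched on when plants are chilled. The C-repeat binding factors CBF1, CBF2 and CBF3 bind a short promoter element shared by many of them, and abscisic acid (ABA) and drought act on several of the same genes. Many of their products are small, very hydrophilic proteins that protect membranes and other proteins during freezing and water loss. Such proteins are also made in seeds as they dry. ELIPs are chlorophyll-binding proteins of the thylakoid that appear under strong light, during greening and when light meets cold.

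The libraries matched their genotype labels at AGO3, which stood at 12.6 and 12.0 counts per 1000000 (CPM, TMM-scaled) in heterozygous, 2.11 and 3.29 CPM in homozygous and 30.4 and 17.7 CPM in wild-type siliques. Totals ran from 30338416 to 36258980 estimated counts per library. Homozygous replicate 2 and wild type replicate 1 stood apart from the other 4 libraries on the first principal component, which carried 37.3% of the variance, so that the axis cut across genotypes. All 6 silique markers listed (FUL, SHP1, SHP2 and IND of the fruit wall, BAN of the seed coat, AGL62 of the endosperm) were detected, at a summed 456 to 515 CPM per library. Siliques are a mixture of tissues, so fewer cells of a type and less RNA per cell cannot be told apart in any value below.

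All 9 genes were well covered, from 119.92 estimated counts for KIN1 in homozygous replicate 2 to 10064.5 for COR47 in wild type replicate 1, and all passed the filter on low values. They fell into 3 patterns. KIN1, KIN2, COR15A, COR15B and RD29A stood at 50.1% to 59.8% of the wild-type mean in heterozygous and at 51.2% to 61.3% in homozygous siliques, with little between the mutant genotypes. The dehydrin genes COR47 and ERD10 were also below wild type in both, but by less. ELIP1 was low in heterozygous siliques alone, at 39.9% of wild type and 44.9% of the homozygous mean, and ELIP2 showed no such difference.

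**Figure D1:**
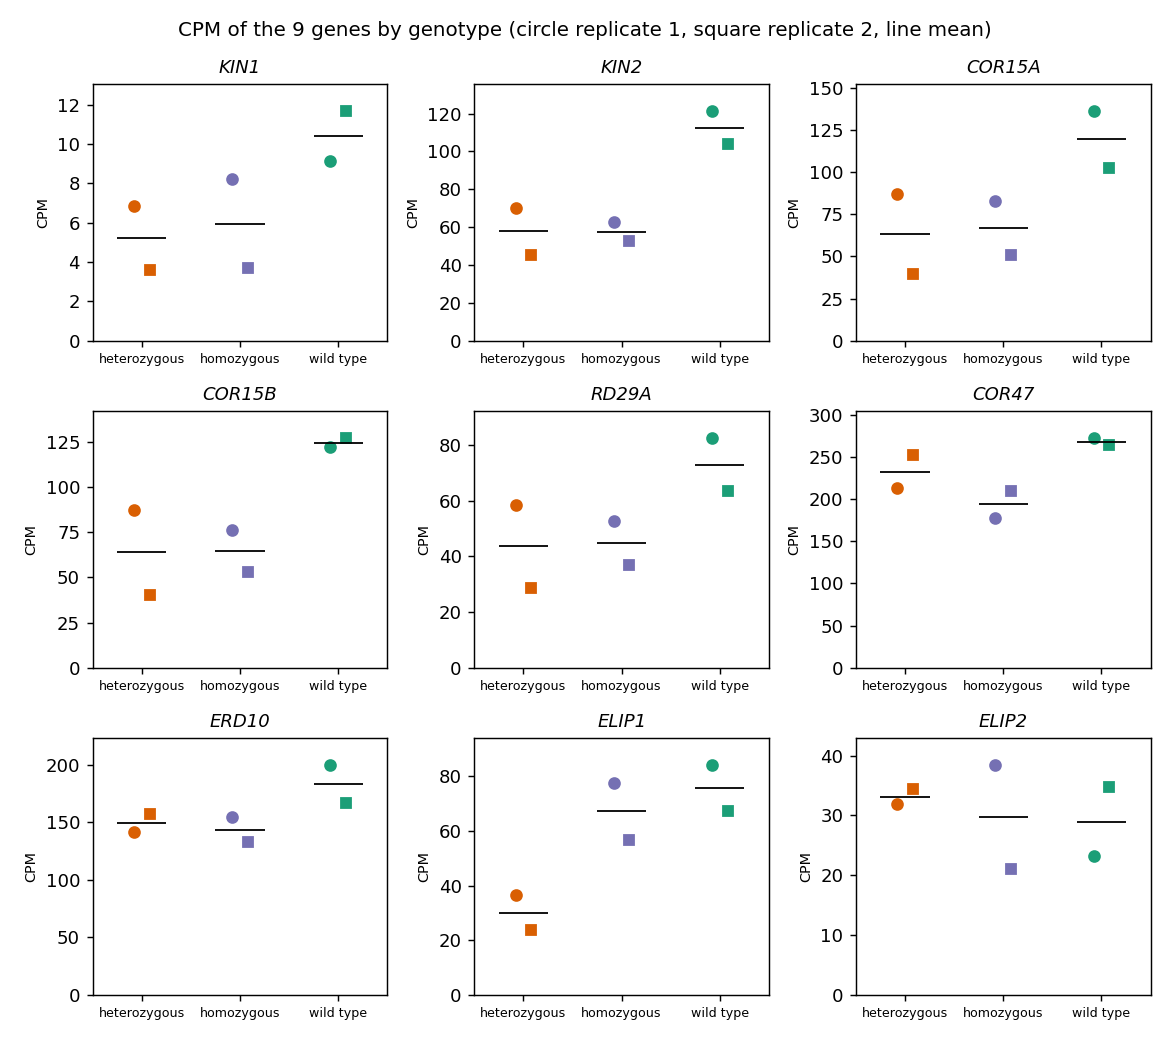
CPM (scaled by TMM) of each of the 9 genes in each mRNA library, by genotype, with circles for replicate 1, squares for replicate 2 and a line at the mean of 2. For the 7 cold-regulated genes the wild-type libraries lie above those of each mutant genotype, whereas ELIP1 is low in the 2 heterozygous libraries only and ELIP2 overlaps between genotypes. Of all tested genes, 17.8% had both heterozygous and 17.3% both homozygous libraries below the wild-type ones. The share with both orders at once was not counted.

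The heterozygous level was part of how the genes were chosen, so the 9 genes' comparisons with heterozygous siliques are given as values without a test. ELIP1 had 36.7 and 23.6 CPM in heterozygous, 77.8 and 56.6 CPM in homozygous and 84.0 and 67.3 CPM in wild-type siliques. Both heterozygous libraries lay below the other 4, while homozygous and wild-type libraries overlapped. The fitted log2 difference was -1.33 ± 0.24 (SE) for heterozygous against wild-type and -1.16 ± 0.24 (SE) for heterozygous against homozygous siliques. ELIP1 was the only 1 of the 9 genes with this order of libraries, which 5.86% of the 22702 tested genes also showed.

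Its paralogue ELIP2, which encodes a protein of the same family, had 31.9 and 34.4 CPM in heterozygous, 38.3 and 21.1 CPM in homozygous and 23.2 and 34.8 CPM in wild-type siliques. The 3 genotypes overlapped, and the widest spread lay between the 2 homozygous libraries. The log2 difference was 0.20 ± 0.29 (SE) for heterozygous against wild-type and 0.16 ± 0.29 (SE) for heterozygous against homozygous siliques. ELIP2 therefore made up 46.5% and 59.3% of the summed CPM of both ELIP genes in heterozygous, 33.0% and 27.2% in homozygous and 21.6% and 34.1% in wild-type siliques, a share not corrected for transcript length. None of the ELIP1 or ELIP2 counts was fractional.

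KIN2, which encodes a small protein induced by cold and ABA, had 70.0 and 45.4 CPM in heterozygous, 62.4 and 52.8 CPM in homozygous and 121 and 104 CPM in wild-type siliques. All 4 mutant libraries were below both wild-type ones, and the heterozygous pair enclosed the homozygous pair. How many of all tested genes had all 4 mutant libraries below both wild-type ones was not counted. The mean of KIN2 was 57.7 ± 17.4 CPM in heterozygous, 57.6 ± 6.79 CPM in homozygous and 113 ± 12.3 CPM in wild-type siliques (SD, n = 2 each). Its log2 difference was -0.96 ± 0.20 (SE) for heterozygous against wild-type siliques. The neighbouring and near-identical KIN1 had 6.82 and 3.61 CPM in heterozygous, 8.22 and 3.69 CPM in homozygous and 9.14 and 11.7 CPM in wild-type siliques. Its log2 difference was -0.99 ± 0.42 (SE) for heterozygous against wild-type and -0.19 ± 0.42 (SE) for heterozygous against homozygous siliques. KIN1 and KIN2 held fractional counts in 4 of 6 libraries each, so reads may have been divided between them or with other genes. The same holds for RD29A in 5 libraries, COR47 in 4, and COR15A and ERD10 in 2 each, while COR15B had fractional counts in 0. With the counts of KIN1 and KIN2 summed, the heterozygous against wild-type log2 difference was -0.97.

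COR15A and COR15B, another pair of neighbours, encode proteins that are imported into the chloroplast stroma and protect its membranes on freezing. COR15A had 87.2 and 39.6 CPM in heterozygous, 82.9 and 50.7 CPM in homozygous and 136 and 103 CPM in wild-type siliques. COR15B had 87.4 and 40.3 CPM in heterozygous, 76.4 and 53.1 CPM in homozygous and 122 and 127 CPM in wild-type siliques. In both genes the heterozygous libraries differed from each other by more than the heterozygous mean differed from the homozygous mean. The log2 difference for heterozygous against wild-type siliques was -0.92 ± 0.37 (SE) for COR15A and -0.96 ± 0.33 (SE) for COR15B. COR15B held 47.3% to 55.2% of the pair's CPM in the 6 libraries, so the balance between them hardly moved.

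RD29A, also called COR78, is induced by cold, drought, salt and ABA and is widely used as a reporter of these signals. It had 58.5 and 28.7 CPM in heterozygous, 52.6 and 36.8 CPM in homozygous and 82.4 and 63.4 CPM in wild-type siliques. The mutant libraries again lay below the wild-type libraries, with a gap of only 4.93 CPM between heterozygous replicate 1 and wild type replicate 2. The log2 difference was -0.74 ± 0.32 (SE) for heterozygous against wild-type and -0.04 ± 0.32 (SE) for heterozygous against homozygous siliques. Its neighbour RD29B, a mainly ABA-induced gene, stood at 0.371 and 0.310 CPM in heterozygous, 0.0893 and 0.154 CPM in homozygous and 0.0811 and 0 CPM in wild-type siliques, where 3 counts are worth 0.0811 to 0.107 CPM. Both heterozygous libraries of RD29B lay above the other 4, on few counts, and the difference from wild type did not pass edgeR's test (adjusted p = 0.955).

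COR47 and ERD10 encode acidic dehydrins, which bind membranes and stabilise proteins when water is lost, and lie next to each other. COR47 had 213 and 252 CPM in heterozygous, 178 and 210 CPM in homozygous and 272 and 264 CPM in wild-type siliques. It was lowest in homozygous siliques, with a log2 difference of 0.26 ± 0.13 (SE) for heterozygous against homozygous and -0.20 ± 0.13 (SE) for heterozygous against wild-type siliques. ERD10 had 141 and 157 CPM in heterozygous, 155 and 132 CPM in homozygous and 199 and 166 CPM in wild-type siliques. The mutant genotypes overlapped, and the log2 difference for heterozygous against wild-type siliques was -0.29 ± 0.14 (SE).

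**Figure D2:**
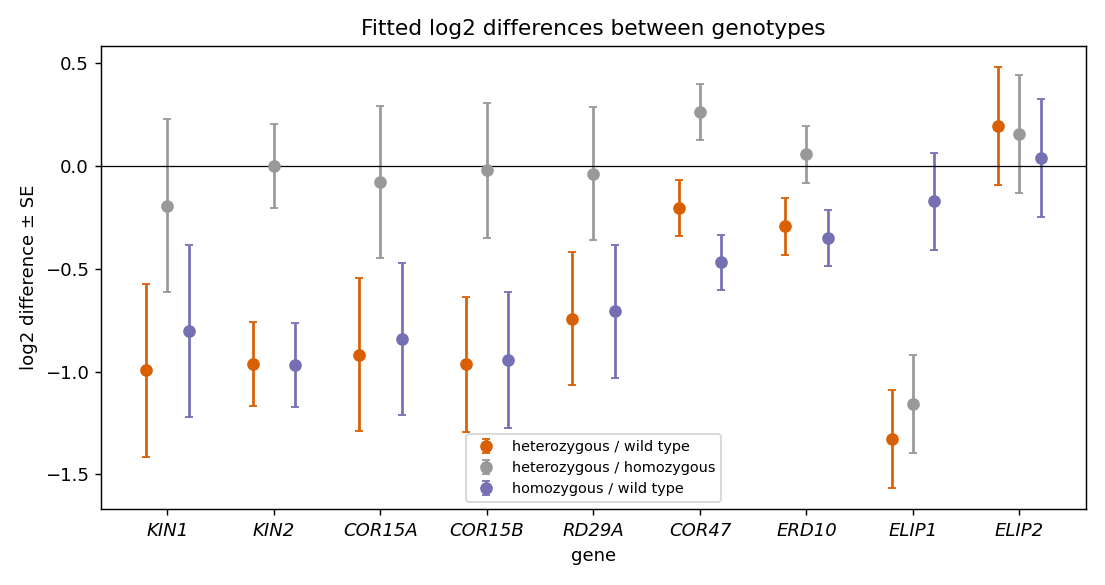
Fitted log2 differences with their SE (2 libraries per genotype, 6 in the fit) for heterozygous against wild-type, heterozygous against homozygous and homozygous against wild-type siliques. The heterozygous against homozygous values stay near 0 except for ELIP1 at -1.16 and COR47 at 0.26.

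Heterozygous siliques were thus below wild type in both libraries for 8 of the 9 genes, an order seen in 17.8% of tested genes, and below homozygous siliques in both libraries for ELIP1 alone, an order seen in 15.7%. Against homozygous siliques, the log2 differences other than those of ELIP1 and COR47 were smaller than their own SE. The share of all tested genes with so small a difference was not counted. The median of the 9 in this comparison was -0.02, and over all tested genes it was -0.01. Against wild type the median was -0.92, and over all tested genes it was -0.00 in the heterozygous against wild-type comparison. Against the mean of homozygous and wild-type siliques the median of the 9 genes was -0.48. No test of the 9 genes is given in these comparisons. Over all 22702 genes, edgeR's quasi-likelihood test called 0 for heterozygous against wild-type siliques, with 597 lower and 409 higher at an unadjusted p under 0.05, and 0 for heterozygous against homozygous siliques, with 322 lower and 423 higher. DESeq2, run on the 28241 genes with at least 1 count, called 17 and 23 genes in these comparisons.

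Homozygous against wild-type siliques is the comparison that the rule for choosing the genes does not name. It shares the 2 wild-type libraries with the heterozygous one, and the genes were chosen with earlier results known, so its values are not independent support. The 7 cold-regulated genes were below wild type in both homozygous libraries, and neither ELIP gene was; 17.3% of tested genes had that order. The log2 difference was -0.97 ± 0.20 (SE) for KIN2, 1.95-fold lower. It was -0.94 ± 0.33 (SE) for COR15B, -0.84 ± 0.37 (SE) for COR15A, -0.80 ± 0.42 (SE) for KIN1 and -0.71 ± 0.32 (SE) for RD29A. The dehydrin genes differed by -0.47 ± 0.14 (SE) for COR47 and -0.35 ± 0.14 (SE) for ERD10. ELIP1, at -0.17 ± 0.23 (SE), and ELIP2, at 0.04 ± 0.29 (SE), differed by less than their SE.

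None of the 9 genes passed edgeR's test for homozygous against wild-type siliques, with adjusted p-values over all 22702 genes from 0.862 to 0.994. edgeR called 0 genes in all in this comparison (0% of those tested), and at an unadjusted p under 0.05 it held 810 genes as lower (3.57%) and 483 as higher (2.13%), or 361 lower and 894 higher with library totals in place of TMM scaling. KIN2, COR15B, COR47 and ERD10 were the 4 of 9 genes among the lower ones. DESeq2, fitted on 28241 genes of which some had no adjusted p, called 66 lower (0.291% of the 22702 that edgeR tested) and 10 higher (0.044%). All 9 genes had an adjusted p here, and of them DESeq2 called KIN2 (adjusted p = 0.00374, lower in 2 of 2 homozygous libraries). Without homozygous replicate 2 and wild type replicate 1, which stood apart, edgeR called 54 genes, none of them among the 9. In edgeR's alternatives the adjusted p of KIN2 ran from 0.137 to 0.999. The median over the 9 genes was -0.71 and over all tested genes 0.01.

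Replicates of a mutant genotype differed in several of the 9 genes. Heterozygous replicate 2 was the lowest of all libraries for KIN1, KIN2, COR15A, COR15B, RD29A and ELIP1, and not for COR47, ERD10 or ELIP2. The share of all tested genes that were lowest in this library was not counted. Among KIN1, KIN2, COR15A, COR15B and RD29A, heterozygous replicate 2 was at 0.454 to 0.648 times heterozygous replicate 1. Homozygous replicate 2 was at 0.449 to 0.846 times homozygous replicate 1, and wild type replicate 2 at 0.754 to 1.28 times wild type replicate 1. KIN2 had the narrowest spread of the 5 genes in both mutant genotypes, with a replicate 2 to replicate 1 ratio of 0.648 in heterozygous and 0.846 in homozygous siliques. Without heterozygous replicate 2 the log2 difference of COR15A against wild type was -0.46 and that of RD29A was -0.32, against -0.92 and -0.74 with it. Without homozygous replicate 2, RD29A stood at -0.47 and KIN1 at -0.34 in the homozygous against wild-type comparison.

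**Figure D3:**
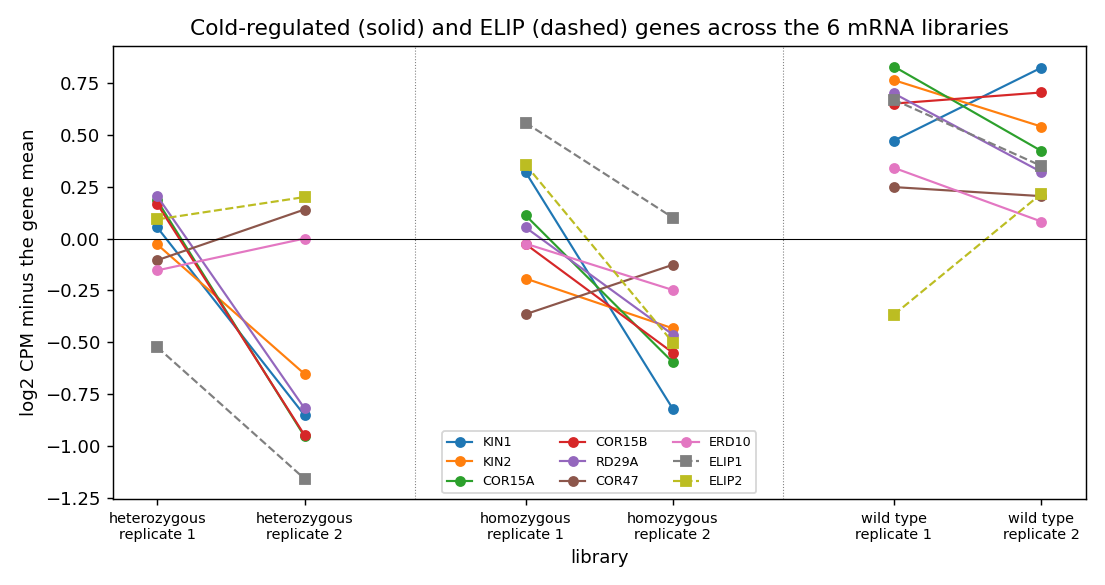
Level of each of the 9 genes in each library as log2 CPM minus the mean of that gene over the 6 libraries, with cold-regulated genes as circles and ELIP genes as squares, and lines that join the 2 replicates of a genotype. KIN1, KIN2, COR15A, COR15B and RD29A move as a bundle that is low in replicate 2 of both mutant genotypes, and COR47 and ELIP2 do not follow it.

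Over the 6 libraries the 10 pairs among KIN1, KIN2, COR15A, COR15B and RD29A had a Pearson r of 0.863 to 0.998 on log2 CPM, given as a description because libraries of a genotype share their label. The same measure was 0.675 to 0.733 between ELIP1 and these 5 genes, 0.584 to 0.746 for ERD10, 0.179 to 0.512 for COR47 and -0.244 to 0.302 between ELIP2 and the other 8 genes. The mean profile of the 9 genes was then set beside 14139 other genes whose mean log2 CPM reached 3. COR47 (r = 0.229) and ELIP2 (r = -0.0465) hardly followed the mean of the other 8. The search takes the highest r of many genes over only 6 libraries, so shared regulation cannot be read from it. The closest was AT5G22480 (r = 0.996 over 6 libraries), followed by the sphingoid base hydroxylase gene SBH1 (r = 0.989), the thylakoid ascorbate peroxidase gene TAPX (r = 0.988), the starch synthesis gene ADG1 (r = 0.988) and AT5G42310 (r = 0.986). Their range was narrower, as for AT5G22480 with 24.9 and 21.2 CPM in heterozygous, 26.0 and 22.9 CPM in homozygous and 29.0 and 28.4 CPM in wild-type siliques.

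The regulators above the COR genes were compared next, from a list of 24 genes of the CBF pathway of which 18 were tested. CBF1, CBF2, CBF4, DDF1 and DDF2 had 5 estimated counts or fewer in every library, and CBF3 had 0.856 and 0.875 CPM in heterozygous, 0.863 and 1.04 CPM in homozygous and 0.973 and 1.15 CPM in wild-type siliques. The median log2 difference of the list was -0.08 for heterozygous and 0.01 for homozygous against wild-type siliques. None passed edgeR's test in any comparison, and DESeq2 called none. Several, CBF3, ZAT10, ZAT12 and RAV1 among them, had no DESeq2 adjusted p for heterozygous against wild type. The list members furthest from 0 for heterozygous against the mean of the other genotypes were the zinc finger repressor gene ZAT10 (-0.56 ± 0.26, SE) and ICE1, which encodes an activator of CBF3 (0.29 ± 0.19, SE). RAV1 (-0.27 ± 0.26, SE) and the zinc finger gene ZAT12 (0.25 ± 0.34, SE) came next.

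Among 25 other cold-induced genes, all tested, 14 were below and 11 above wild type in heterozygous siliques, and 12 below and 13 above in homozygous siliques, with none past either test. The median log2 difference was -0.05 and 0.03 in the same order. The dehydrin gene LTI30 had 34.8 and 17.0 CPM in heterozygous, 33.9 and 23.1 CPM in homozygous and 43.5 and 36.5 CPM in wild-type siliques, the same order of libraries as COR15A. COR28, which acts in cold response and the circadian clock, differed by -0.45 ± 0.15 (SE) for heterozygous and -0.42 ± 0.15 (SE) for homozygous against wild-type siliques. BAM3, a chloroplast beta-amylase gene, differed by -0.48 ± 0.17 (SE) and -0.36 ± 0.17 (SE) in these comparisons. RCI2B, which encodes a small membrane protein, differed the other way, by 0.37 ± 0.30 (SE) and 0.25 ± 0.30 (SE). The listed gene further from wild type than KIN2 or COR15A in these comparisons was GOLS3, at 0.0893 to 0.501 CPM and so close to what 3 counts are worth, and it is named after its values were seen.

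**Figure D4:**
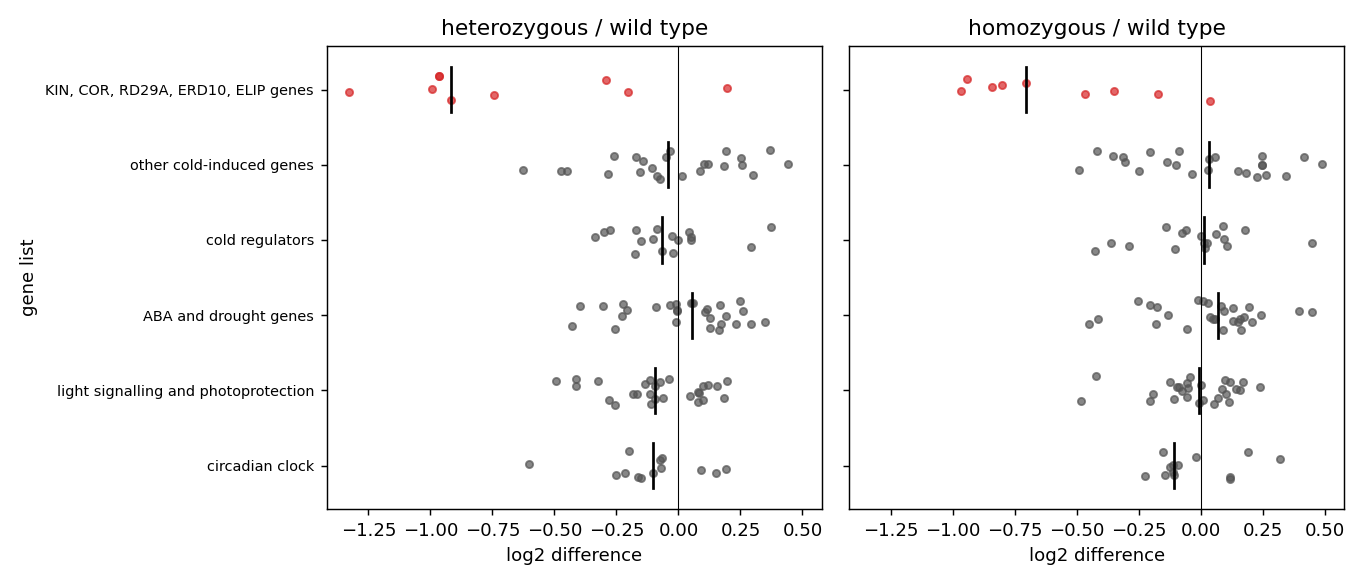
Fitted log2 differences against wild type of heterozygous (left) and homozygous (right) siliques for the 9 genes and for 5 lists of pathway genes whose mean log2 CPM reached 1, with a bar at each median. The medians of the 5 lists lie between -0.11 and 0.07 in both panels, and those of the 9 genes at -0.92 and -0.71.

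Of 32 ABA and drought genes, 31 were tested with edgeR and neither tool called any. NCED3, ABI5 and ABF3, among others, had no DESeq2 adjusted p for heterozygous against wild type. The median of the 31 genes was 0.06 for heterozygous and 0.08 for homozygous against wild-type siliques. Among those whose mean log2 CPM reached 1, the values furthest from 0 for heterozygous against the mean of the other genotypes were -0.45 ± 0.26 (SE) for NCED3, which encodes the rate-limiting enzyme of ABA synthesis, and 0.35 ± 0.20 (SE) for the phosphatase gene HAI1, followed by the transcription factor genes ABI5 (-0.33 ± 0.24, SE) and ABF3 (-0.30 ± 0.20, SE). Of 28 light signalling and photoprotection genes, 27 were tested and edgeR called none. The flavonol synthase gene FLS1 was the only 1 called by DESeq2, lower in homozygous (log2 difference -0.48, adjusted p = 0.0093, DESeq2) and in heterozygous siliques (-0.49, adjusted p = 0.0146, DESeq2) than in wild type. Like the KIN and COR15 genes it was low in both mutants, with 92.3 and 90.1 CPM in heterozygous, 92.4 and 91.2 CPM in homozygous and 133 and 124 CPM in wild-type siliques. The flavonoid enzyme genes F3H (-0.39 ± 0.11, SE) and CHS (-0.31 ± 0.12, SE), and the light-signalling transcription factor genes HYH (-0.30 ± 0.35, SE) and HY5 (-0.25 ± 0.18, SE), were lower in heterozygous siliques than in the mean of the others, without passing a test. The 27 genes ran from -0.39 to 0.16 in this comparison, in which ELIP1 stood at -1.24 ± 0.22 (SE).

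The clock gates the cold response through the day, and its 13 listed genes, all tested with edgeR, gave no call by either tool. LHY, RVE8 and CCA1, among others, had no DESeq2 adjusted p for heterozygous against wild type. The largest differences between heterozygous siliques and the mean of the others were those of the morning genes LHY (-0.49 ± 0.19, SE) and RVE8 (-0.41 ± 0.29, SE), followed by PRR5 and GI (-0.16 ± 0.09 and -0.16 ± 0.11, SE). LHY had 3.57 and 3.02 CPM in heterozygous, 4.26 and 4.30 CPM in homozygous and 4.89 and 5.12 CPM in wild-type siliques, so that the genotypes did not overlap. Of all tested genes, 5.86% had both heterozygous libraries below the other 4, and the share with all genotypes apart was not counted. CCA1 of the same list went the other way, with 7.11 and 7.05 CPM in heterozygous, 6.70 and 5.62 CPM in homozygous and 6.68 and 6.62 CPM in wild-type siliques. Against the mean of the others, 10 of the 13 were lower and 3 higher. The time of harvest is not given in the sources used here.

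Markers of maturing seed, in which many protective proteins accumulate, differed widely between libraries. The summed CPM of the 5 tested of 8 markers was 34.4 and 163 in heterozygous, 79.0 and 2.67 in homozygous and 4.32 and 19.8 in wild-type siliques. EM1 was at 0 in every library, and EM6 and CRU3 were also under the filter. All 5 were fitted higher in heterozygous and in homozygous than in wild-type siliques, without a call by either tool. Most of them had no DESeq2 adjusted p for heterozygous against wild type. Heterozygous replicate 2 had the most marker RNA and homozygous replicate 2 the least. These were the lowest and next lowest libraries for KIN1, KIN2, COR15A, COR15B and RD29A, but not for COR47, ERD10, ELIP1 or ELIP2. The 2 libraries with the least marker RNA, homozygous replicate 2 and wild type replicate 1, were those that stood apart on the first principal component. The summed CPM of the 6 pollen markers was 188 and 264 in heterozygous, 144 and 95.5 in homozygous and 239 and 193 in wild-type siliques, and DESeq2 called the pollen genes AGP6 and AGP11 lower in homozygous siliques than in wild type. The 6 green tissue markers summed to 22304 and 18168 CPM in heterozygous, 20513 and 18918 CPM in homozygous and 20471 and 18932 CPM in wild-type siliques. The 2 petal and stamen markers summed to 79.7 and 86.6 CPM in heterozygous, 79.5 and 79.2 CPM in homozygous and 87.2 and 107 CPM in wild-type siliques. The part of these tissues in the levels of the 9 genes was not tested.

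The sRNA libraries gave a readout that the choice of genes did not use, with 1 library per condition and therefore no test. Reads were summed over the 500 bp windows that overlap each gene, without knowledge of strand, and expressed as reads per 1000000 (RPM). Over ELIP1 there were 328 reads in the AGO3 immunoprecipitate, 87 in the control and 184 in total sRNA, or 8.82, 3.40 and 4.57 RPM. Reads of a neighbouring gene in the outer windows cannot be told apart from those of the gene itself. For ELIP1 the ratio of AGO3 immunoprecipitate to control was 2.60, with an exact binomial 95% interval of 2.04 to 3.33 that covers counting error only. Most of these reads lay in the windows wholly inside ELIP1, chr3:8084501-8085000 with 192 AGO3, 36 control and 128 total reads and chr3:8085001-8085500 with 129, 42 and 51 (TAIR10). ELIP1 was the 1 of 7 genes with at least 100 reads in both immunoprecipitates together that reached a ratio of 2, a limit chosen after the values were seen, and 6.26% of 8597 protein-coding genes with as many reads reached it.

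The other genes had ratios of 1.06 or less. ELIP2 had 16 AGO3 and 23 control reads, a ratio of 0.479 (0.237 to 0.947). The ratio was 0.503 (0.347 to 0.723) for KIN1, 0.578 (0.422 to 0.789) for COR15B, 0.599 (0.444 to 0.807) for COR47 and 0.733 (0.602 to 0.892) for ERD10. The intervals of KIN2 (0.905, 0.681 to 1.21), RD29A (1.03, 0.827 to 1.29) and COR15A (1.06, 0.653 to 1.73) included 1. With 500 bp added on each side of the gene, COR15A moved to 0.675 (0.505 to 0.902), an interval without 1. The windows added to COR15A include chr2:17709501-17710000, which overlaps its neighbour COR15B and held 44 AGO3 and 69 control reads. The wider value of COR15A is therefore not that of COR15A alone. ELIP2 moved to 0.861 (0.527 to 1.42), an interval with 1, so its reading did not hold. Over the 8597 genes the median ratio was 0.590, with quartiles of 0.361 and 0.938, so these values lay in or near the usual range. The reads over ERD10 were 216 AGO3, 203 control and 354 total, and over RD29A 208, 139 and 205.

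**Figure D5:**
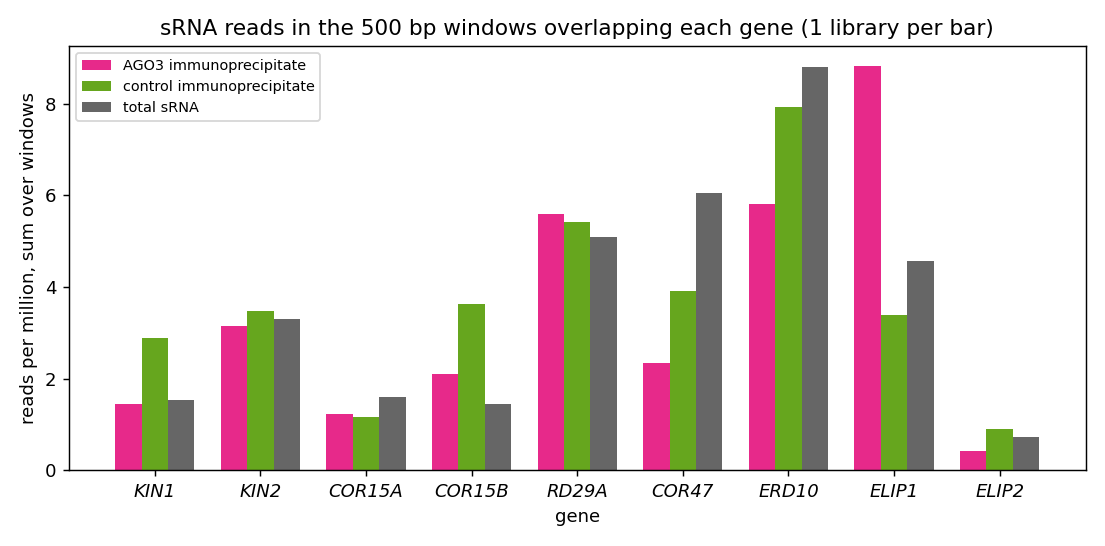
sRNA reads per 1000000 (RPM) summed over the 500 bp windows that overlap each of the 9 genes, in the AGO3 immunoprecipitate, the control immunoprecipitate and total sRNA, with 1 library per bar and no replicate. ELIP1 is the gene at which the AGO3 immunoprecipitate, at 8.82 RPM, most exceeds the control, at 3.40 RPM.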

How the data were processed

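Values in the deposited mRNA table were estimated counts, unscaled, by gene, and 7.88% of them were not whole. The submitters' processing notes name HISAT2, featureCounts, Bowtie and the build TAIR10, without versions, and settings and strand handling are not stated in them. The deposited sRNA table held read counts per 500 bp window. Estimated counts were rounded, and 22702 of 34262 rows passed edgeR's expression filter. The 6 mRNA libraries were fitted together with edgeR 4.0.16 (quasi-likelihood test, TMM scaling, R 4.3.3, 3 residual degrees of freedom, Benjamini-Hochberg adjustment at 0.05), with DESeq2 1.42.0, on the 28241 genes with at least 1 count, as the alternative tool. DESeq2's default filter was kept, so some fitted genes had no adjusted p in a given comparison. An SE is the log2 difference divided by the root of F. Scripts were tested on simulated data. The members and all gene lists were chosen with earlier results of these data known. All 9 genes were named, with AGO3, neighbours on a list, up to 4 genes per list (called ones first, then those with the largest heterozygous difference where the mean log2 CPM reached 1) and the 5 genes of most similar profile. FLS1 was named as a DESeq2 call, CBF3 and CCA1 after their values were seen. Gene positions for the sRNA windows came from a table of TAIR10.1, whose coordinates are not printed. Promoter and protein sequences were not analysed here. Intervals cover counting error only. Summaries and plots used Python 3.11.15 with pandas 2.3.3, numpy 2.4.6, matplotlib 3.10.9 and scipy 1.17.1.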

Additional observations from a re-analysis of the deposited data

How the results depend on the processing

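edgeR called 0 genes in each of the 4 comparisons with TMM or RLE scaling, library totals or the replicate block. DESeq2 called 17 genes for heterozygous against wild type, 23 for heterozygous against homozygous, 6 for heterozygous against the mean of both and 76 for homozygous against wild type. Without homozygous replicate 2 and wild type replicate 1 edgeR called 22, 5, 6 and 54 in the same order, and with no low-count filter it called 4 for homozygous against wild type. Leaving out 1 library at a time gave 0 to 4, 0 to 1, 0 to 1 and 0 to 3 calls, the nonzero ones without a wild-type library. The cause was not tested. The median log2 difference of the 9 genes ran from -1.33 to -0.46 (heterozygous against wild type), -0.63 to 0.25 (against homozygous), -0.98 to -0.10 (against the mean of both) and -0.99 to -0.47 (homozygous against wild type) with 1 library left out. For homozygous against wild type ELIP1 ran from -0.42 to 0.04 with 1 library left out (0.04 without homozygous replicate 2) and was at 0.21 without homozygous replicate 2 and wild type replicate 1, and ELIP2 ran from -0.46 (without homozygous replicate 1) to 0.41, with -0.23 without wild type replicate 1. Under the replicate block the medians were -0.99, -0.07, -0.51 and -0.72. The numbers do not pair libraries by the labels, and deviations of same-numbered libraries correlated at -0.0447 (heterozygous and wild type), -0.0877 (heterozygous and homozygous) and -0.364 (homozygous and wild type). With homozygous numbers crossed, a setting chosen after seeing the data, edgeR called 1 gene for homozygous against wild type. In that setting it also called 1 for heterozygous against wild type, 1 against the mean of both and 0 against homozygous. Each sRNA ratio with windows wholly inside the gene or 500 bp added on each side lay within the interval of the value reported. With 500 bp added, however, COR15A moved to 0.675 and ELIP2 to 0.861, and their own intervals changed sides of 1. For COR15A the added windows include 1 that overlaps COR15B. The motif count planned for promoters was not run.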
